A study of Capra hircus with 3 samples.

Results

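Cells carrying transcripts of the division machinery were followed in dorsal skin of Northern Shaanxi White Cashmere goat fetuses at embryonic day 60 (E60). The members were chosen by the measured values themselves, as the E60 cells in which at least 4 of 7 division genes (TOP2A, CENPF, NEK2, HJURP, CENPE, NUSAP1 and CDK1) were detected. They numbered 1040 of 6849 E60 cells, 15.2% (95% exact Clopper-Pearson interval 14.3 to 16.1%), in a data set of 20676 cells. They were compared with the 4461 E60 cells, 65.1%, in which none of the 7 genes was detected. The other 1348 cells had 1 to 3 of the genes. The study holds 1 library each for E60, E90 and E120, which the series title places along hair follicle formation. Each pooled cells of at least 2 fetuses before barcoding. E60 and E90 skin was dissociated with collagenase IV, whereas at E120 follicles were dissected from the skin and TrypLE was used. With 1 library per stage no difference below has a replicate check, and the intervals cover counting error only.

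A cell that commits to division copies its DNA in S phase, with replication licensing factors and nucleotide-making enzymes, and then prepares the spindle and condenses its chromosomes in G2 and mitosis. Transcripts of the mitotic motors, kinetochore proteins and cyclins build up late in the cycle and are cleared after division. In fetal dermis, growth of the fibroblast layer by division goes on while groups of mesenchymal cells take on separate fates, among them the dermal condensate, which stops dividing early in many mammals and later forms the papilla of the hair follicle.

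The 7 genes that chose the members differed in how often they were seen, a description only. TOP2A, the topoisomerase that untangles copied DNA, was detected in 99.7% of members at 1298 CPM (the gene's UMIs, or molecule counts, summed over all members and scaled to a total of 1000000). CENPF, a kinetochore and matrix protein of the nucleus, was in 97.1% at 1583 CPM. CENPE, a kinetochore motor, was in 91.2%, the centrosome kinase NEK2 in 85.4%, the spindle protein NUSAP1 in 73.4% and HJURP, which loads centromeric histone, in 71.3%. CDK1, the kinase that drives entry into mitosis, was in 48.6% of members at 62.5 CPM, the lowest of the 7. TOP2A and CENPF were thus present in nearly all members. The 202 cells with exactly 4 of the genes, just inside the threshold, had 461 CPM of TOP2A and 336 CPM of CENPF, and the 192 cells with 3, just outside it, had 288 and 241 CPM. CENPE was detected in 70.3% of the cells with 4 and 46.9% of those with 3, and NUSAP1 in 48.0 and 26.6%, while TOP2A was already in 87.5% of the cells with 3. A further 894 cells had a single rule gene, which was TOP2A in 36.4% of them and CENPF in 26.7%.

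The label of G2 or mitosis was checked on genes the rule did not use, which still come from the same cells. A list of 124 other G2 and mitosis genes summed to 19664 CPM in members (95% exact Poisson interval 19587 to 19741) and to 1426 CPM in the cells with none, a log2 ratio of 3.78. A list of 75 S-phase genes summed to 4601 CPM against 1380 CPM, a log2 ratio of 1.74. The G2 and mitosis list went up step by step with the number of rule genes, from 1426 CPM at 0 through 10840 at 4 to 26270 at 7. The S-phase list reached 6625 CPM in cells with 4 rule genes and was lower again, at 3072 CPM, in cells with all 7. Members thus held cells with many S-phase transcripts beside those with the most mitotic ones, and the label fits the cells with 6 or 7 rule genes better than those with 4. Summed G2 and mitosis UMIs exceeded summed S-phase UMIs in 1000 of the 1040 members, 96.2%, although the first list is also the longer. Over the 1040 members the per-cell levels of both lists had a Pearson correlation of -0.51. These cells share 1 library and both levels share each cell's total, so this is a description.

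Depth moved with membership. The median member had 11847 UMIs (quartiles 9896 and 13736) and 2404.5 genes, against 8087 UMIs and 1742 genes in the cells with none. After every cell was thinned to 6000 UMIs, members still had a median of 1635 genes against 1447. Cells with 3 rule genes had 10694.5 UMIs and cells with all 7 had 12709.5. Called doublets made up 7.31% of members and 2.73% of the cells with none. Mitochondrial transcripts took a median of 4.66% and 4.47% of UMIs. A deeper cell shows a rule gene more easily, and a larger, deeper cell and a cell further in the cycle cannot be told apart by this rule. With each cell thinned to 6000 UMIs and the rule applied again, 12.2% of E60 cells were members.

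**Figure D1:**
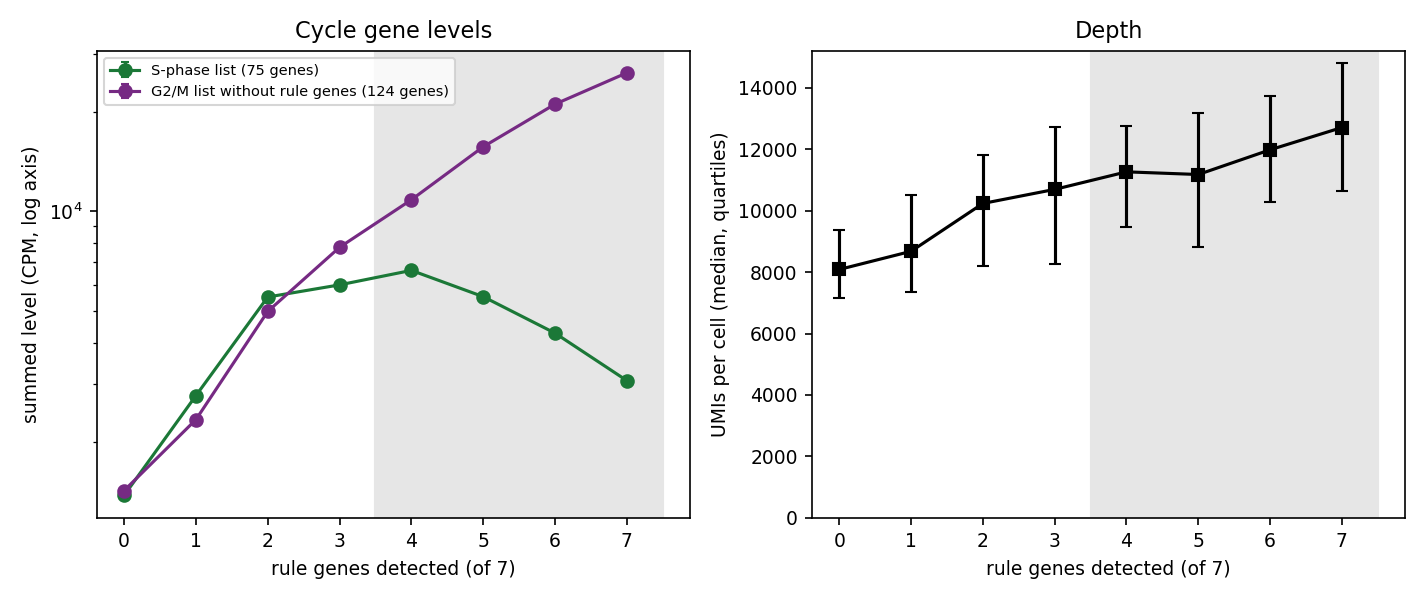
Summed level in CPM (log axis, left) of the S-phase list and of the G2 and mitosis list, and UMIs per cell (right, median with quartiles), by the number of rule genes detected in E60 cells. Cells in the grey band are members. The G2 and mitosis list goes from 1426 to 26270 CPM, the S-phase list peaks at 6625 CPM with 4 genes, and the median UMI count goes from 8087 to 12709.5. Intervals on the left are smaller than the symbols.

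Of the 124 other G2 and mitosis genes, 91 had at least 20 CPM in either group, and 75 of those reached it in members alone and so had to differ. As a description, 90 of the 91 were at least 1.5-fold higher in members. For scale, over all 3979 genes at this level other than the rule genes, 19.1% were higher and 5.1% lower, with a median of 0.15. The spindle pole gene ASPM had 191 CPM in members and 0.439 CPM in the cells with none, the spindle motor KIF11 had 209 against 0.671 CPM and the cytokinesis motor KIF23 206 against 0.671 CPM. Among genes picked after their values were seen, the mitotic cyclin CCNB2 had 229 against 1.83 CPM, and the mitotic kinases AURKA and AURKB had 162 against 1.19 and 212 against 1.81 CPM.

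Replication genes were higher as well. Of 43 S-phase genes at this level 25 reached it in members alone, and 40 were higher and none lower. RAD51AP1, a recombination helper, had 121 CPM in members against 4.10, the late repressor of the E2F programme E2F8 had 74.6 against 2.56, the checkpoint adaptor CLSPN 157 against 8.91 and the ribonucleotide reductase subunit RRM2 40.2 against 1.70. The replicative helicase subunit MCM5, picked after its values were seen, followed another course. It had 142 CPM in members, 281 CPM in cells with 1 to 3 rule genes and 69.8 CPM in cells with none, so it was highest outside the members. Of the 19 histone genes listed, 7 reached 20 CPM, each of them in members alone, so that their being higher was fixed by the filter. Among them were the linker histones HIST1H1B at 110 against 1.06 CPM and HIST1H1C at 162 against 5.65 CPM. Reads of near-identical histone and tubulin copies may have been split or lost in counting, so single members of those families are uncertain. Of 26 chromatin and tubulin genes tied to the cycle, 23 were higher and 1 lower, and 5 of the 26 reached 20 CPM in members alone. The tubulin TUBA1B had 12940 CPM in members against 1941 CPM, the histone variant H2AFZ 3452 against 351, TUBB4B 1256 against 186, and the Polycomb enzyme EZH2 75.8 against 13.2. The cycle lists and rule genes together took 6.04% of member UMIs and 1.11% of those of the cells with none, which lowers the share left for every other gene in members.

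Members varied among themselves along the cycle. PLK1, a mitotic kinase outside the rule, was detected in 242 members, 23.3%, and these had a median of 12862 UMIs against 11502.5 in the other 798. The members with PLK1 carried 25121 CPM of the G2 and mitosis list and 3039 CPM of the S-phase list, and those without it 17770 and 5133 CPM. The 10 genes with the largest difference in each direction were then listed, after the values were seen. Higher with PLK1 were ASPM at 306 against 151 CPM, DEPDC1 at 68.6 against 33.9 and REEP4, which clears endoplasmic reticulum from mitotic chromosomes, at 323 against 170 CPM. Also on that side were COL12A1, a fibril-associated collagen, at 53.2 against 26.5 CPM, and ANGPTL1, a secreted protein, at 64.0 against 33.5 CPM, which in the cells with none stood at 46.6 and 64.7 CPM. Lower with PLK1 were the helicase subunits MCM5 at 47.1 against 174 CPM and MCM3 at 52.3 against 183 CPM, and the mismatch repair gene MSH6 at 25.2 against 77.1 CPM. CCL21, a lymphatic chemokine, had 12 against 284 CPM, in a comparison where 3 members lay in the lymphatic cluster that it led, and the heart and embryonic muscle actin ACTC1 had 19.7 against 81.2 CPM.

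Beyond the cycle lists, 3812 genes had at least 20 CPM in either group. Of these, 600 (15.7%) were at least 1.5-fold higher in members and 202 (5.3%) lower, with a median log2 ratio of 0.14. Both counts include genes that reached 20 CPM in 1 group alone, whose direction was fixed by the filter. Scaling by the median of ratios, which centres the typical gene and shifts all log2 ratios down by 0.16, gave 424 higher and 388 lower, so that higher genes made up 52.2% of those counted in place of 74.8%. The list of genes on no cycle list is not free of the cycle. The 12 highest with a symbol and at least 50 CPM were PRR11, SPDL1, ZWILCH, MND1, DBF4, NT5C, RHNO1, REEP4, TCF19, CEP78, CHEK2 and FAM122B. Several have known roles in division: SPDL1 and ZWILCH bring dynein and its partners to the kinetochore, DBF4 activates the kinase that fires replication origins, and CHEK2 is a DNA damage checkpoint kinase. PRR11 had 101 CPM against 1.14, SPDL1 124 against 5.73, DBF4 132 against 9.04 and CHEK2 54.6 against 6.32 CPM. The nucleotidase NT5C had 120 against 8.85 CPM, and MND1, known for pairing chromosomes in meiosis, had 159 against 10.3 CPM. All 12 reached 20 CPM in members alone, and all were higher in each of 8 mesenchymal clusters with at least 30 members, described below. The cells of those clusters were among the ones summed to pick the 12 genes, so this is a description.

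Genes of RNA processing and nuclear transport stood higher as a group, with 20 of 26 counted higher, none lower and a median log2 ratio of 0.80, although 7 of the 26 reached 20 CPM in members alone. The list median was above 0 in 8 of 8 clusters, between 0.45 and 1.12, where the median of all genes lay between 0.10 and 0.27. The nuclear pore genes led it: NUP37 had 104 CPM in members against 30.5, NUP155 22.5 against 7.07 and NUP50 93.2 against 40.4 CPM. The export receptor XPO1 had 39.8 against 16.2 CPM. NUP155 and XPO1 reached 20 CPM in members alone, so their direction was fixed by the filter. Among more abundant members, picked after their values were seen, HNRNPA2B1, an RNA-binding protein, had 2288 against 1165 CPM and the splicing factor SRSF7 had 948 against 445 CPM. The nuclear envelope genes LMNA and SYNE2, also picked later, had 737 against 256 and 334 against 69.3 CPM.

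Of 20 immediate early and heat shock genes 4 were higher and 1 lower, with a median of -0.07, a share of higher genes near that of all genes. The 4 higher ones were chaperones. HSP90AA1, the inducible cytosolic HSP90, had 4894 CPM in members against 2336, and it was 1.5-fold higher in 8 of 8 clusters. HSPA8, the constitutive HSP70, had 730 against 398 CPM, HSPH1 82.8 against 47.3 and the mitochondrial chaperone HSPD1 427 against 274 CPM. The HSP90 co-chaperone FKBP4 had 112 against 40.3 CPM. HSP90AB1, the constitutive paralog of HSP90AA1, was lower in CPM, at 1768 against 2493, but within 1.5-fold. The immediate early genes FOS at 4567 against 4786 and JUN at 1634 against 1655 CPM were close (HSP90AB1, FOS and JUN were picked after their values were seen). Members held 1.42 times the mean UMIs of the cells with none, so the lower CPM of HSP90AB1 does not mean fewer UMIs per cell.

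Metabolic and ribosome biogenesis lists mostly stood near the typical gene. Of 8 glycolysis and hypoxia genes 2 were higher: the phosphofructokinase PFKP at 26.7 against 5.65 CPM and the cytokine MIF at 1949 against 970 CPM. Among the 8, 2 reached 20 CPM in members alone, PFKP among them, so its direction was fixed by the filter. Of 29 nuclear-coded respiratory chain genes 1 was higher, CYC1 at 171 against 109 CPM, and of 11 mitochondrially encoded genes none was past 1.5-fold. Of 16 genes of ribosome biogenesis and MYC action 2 were higher and 1 lower, the last being NHP2, a small nucleolar particle protein, at 13.3 against 27.6 CPM. NHP2 reached 20 CPM in the cells with none alone, so its direction was fixed by the filter. Ribosomal protein genes had a median log2 ratio of -0.26, below 0 in 8 of 8 clusters, with 1 of 27 past 1.5-fold, RPL26L1 at 311 against 193 CPM. Among genes picked after their values were seen, PHGDH, the entry enzyme of serine synthesis, had 119 against 37.9 CPM, and MTHFD1, a folate enzyme, 89.2 against 29.8 CPM. The adhesion molecule NCAM1 had 420 against 144 CPM. LXN, a carboxypeptidase inhibitor, had 68.8 against 11.3 CPM, a log2 ratio of 2.50 that was 1.21 when the cells with none were weighted to the depth of the members.

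Some genes lower in members were also lower inside each mesenchymal cluster, and others were not. OGN (osteoglycin), a small leucine-rich proteoglycan of the matrix, was the lowest of all genes named. It had 1235 CPM in the cells with none (95% exact Poisson interval 1224 to 1246), 897 CPM in cells with 1 to 3 rule genes and 383 CPM in members (372 to 394), a log2 ratio of -1.69. Per cell, members carried 4.70 OGN UMIs against 10.7. It was lower in 8 of 8 clusters, with log2 ratios from -2.85 to -1.10. In the SEMA3C cluster, where OGN was most abundant, it had 1693 CPM in members against 3635 CPM. CRABP2, a retinoic acid carrier, had 325, 245 and 104 CPM in the same order of groups, and ratios from -2.83 to -0.82 over the 8 clusters. RGS4, a brake on G protein signalling, had 92.0, 74.0 and 37.2 CPM, and was also lower in 8 of 8.

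CCND1, the cyclin D1 that drives cells from G1 towards S phase, was lower in members although it is a cycle gene by function. It had 440 CPM in the cells with none, 382 CPM in cells with 1 to 3 rule genes and 216 CPM in members, with 2.66 UMIs per member against 3.82. It was at least 1.5-fold lower in 8 of 8 clusters, with log2 ratios from -1.68 to -0.72. MYC, a growth transcription factor, had 93.7 against 162 CPM and SOX4, a factor of progenitor cells, 371 against 634 CPM, both lower in 8 of 8 clusters. Per cell, MYC had 1.15 against 1.41 UMIs and SOX4 4.56 against 5.50. Being lower in 8 of 8 was not particular to these genes, as it also held for POSTN, VIM and COL1A2 below. Of the list on cycle exit, 5 of 16 genes were higher and 6 lower, beside 19.1% and 5.1% of all genes at this level. RBL1, a pocket protein that binds E2F factors, was the highest at 25.8 against 5.63 CPM, followed by CDK4 at 23.9 against 13.1 and BTG3 at 276 against 161 CPM. RBL1 and CDK4 were the 2 genes of this list that reached 20 CPM in members alone, so their direction was fixed by the filter. The cyclin-dependent kinase inhibitor CDKN1C had 410 against 621 CPM while its relative CDKN1B had 101 against 66.3 CPM (both picked after their values were seen). The histone demethylase KDM5B, also picked later, had 17.9 against 49.0 CPM and was lower in 8 of 8 clusters. KDM5B reached 20 CPM in the cells with none alone.

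For other low genes the clusters did not all share the pooled direction. SPP1 (osteopontin), a leading gene of the macrophage-like cluster, had 375 CPM in members against 1111 CPM, a log2 ratio of -1.57. In the sum over all mesenchymal clusters the ratio was 0.26, with 4 of 8 clusters higher and 4 lower. Myeloid markers as a list summed to 22.8 CPM in members and 83.3 CPM in the cells with none, with 0 of 9 higher in members. Genes of the SEMA3C cluster were lower within it and mixed elsewhere, where they were mostly scarce. ASPN, a proteoglycan relative of OGN, had 147 against 367 CPM over all E60 cells and 1104 against 1829 CPM in that cluster. CYTL1, a cytokine-like cartilage gene, had 40.5 against 101 CPM overall and 240 against 367 CPM there, while the 5 clusters in which it was higher had at most 8.81 CPM. SERPINF1, an antiangiogenic serpin, had 62.5 against 155 CPM overall and 649 against 1011 CPM there. With the cells with none weighted to the cluster makeup of the members, the log2 ratios of ASPN, CYTL1 and SERPINF1 were -0.89, -0.85 and -0.78, smaller than the pooled -1.31, -1.30 and -1.29 and still past 1.5-fold. The elastic fibre gene MFAP5 had a pooled log2 ratio of -0.88, which was -0.24 under the same weighting. The remaining genes of the 12 lowest were HMOX1, IGFBP6, TM4SF1 and IGF1, which were lower in 7, 6, 5 and 6 of 8 clusters. Their weighted log2 ratios were -1.08, -0.80, -0.67 and -0.74. In the sum over all mesenchymal clusters they were -0.82, -1.42, -0.0062 and -1.32, so TM4SF1 did not differ there. HMOX1 was at least 1.5-fold lower in 2 of 8 clusters, and had 8.81 against 211 CPM in the cluster led by HMGCS1, described below. Of the 600 genes higher in the pooled sums, 505 (84.2%) were higher in all 8 clusters, and of the 202 lower ones 110 (54.5%) were lower in all 8. The cells of these clusters were among those summed to pick the genes, so part of this agreement was built in, and it is a description only.

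**Figure D2:**
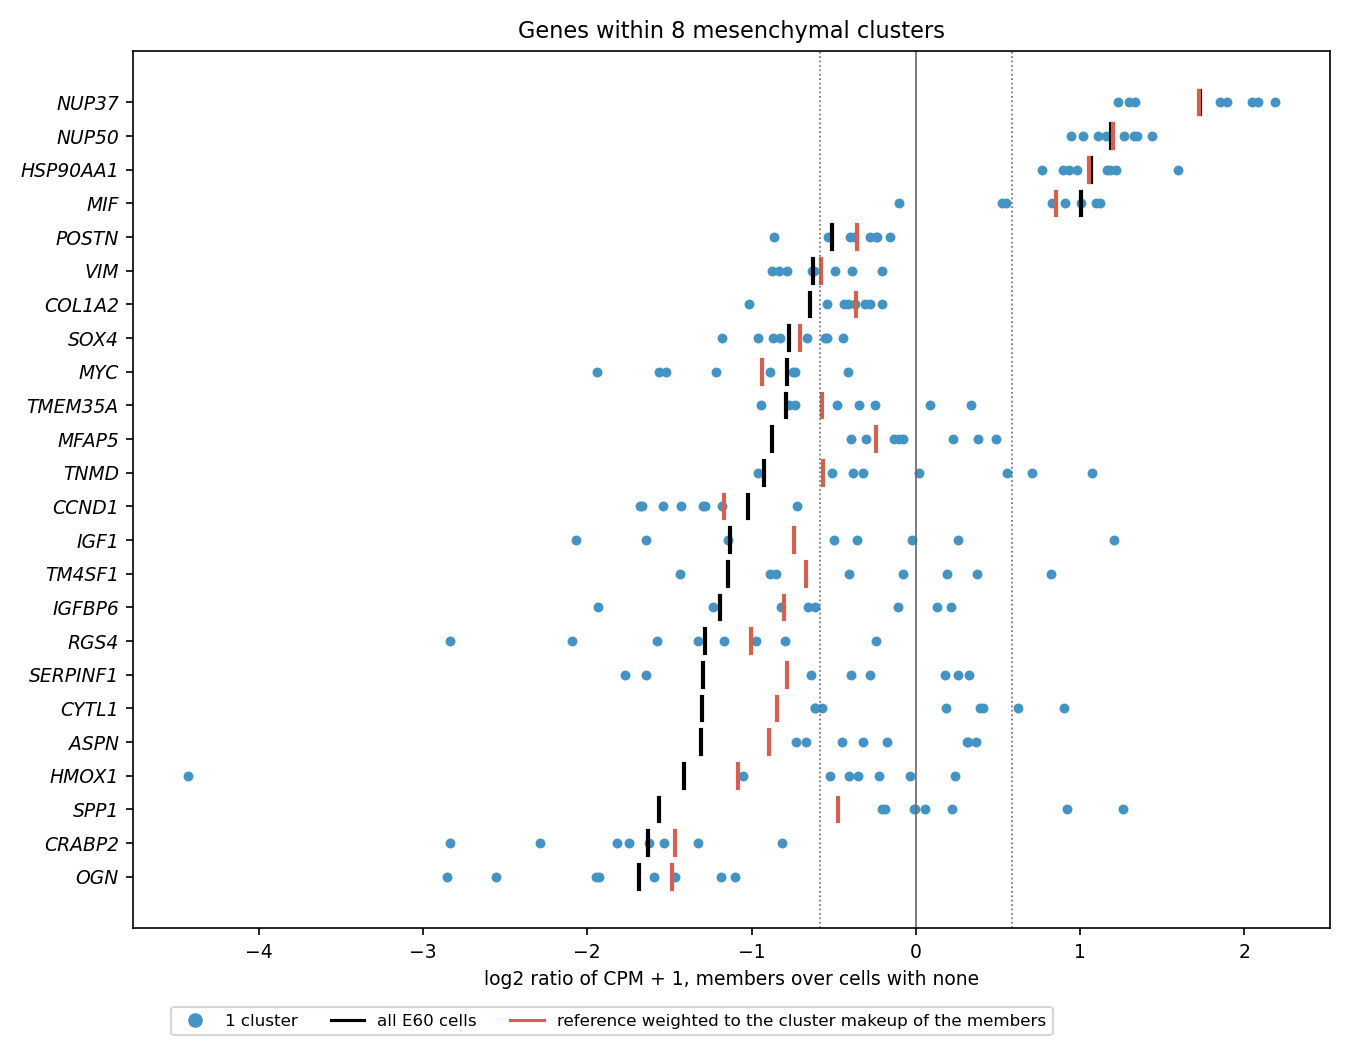
Log2 ratio of CPM + 1, members over cells with none of the rule genes, for 24 genes within each of the 8 mesenchymal clusters with at least 30 members (points), for all E60 cells (black bars) and with the cells with none weighted to the cluster makeup of the members (red bars). Dotted lines mark 1.5-fold. All 8 points lie below 0 for OGN, CRABP2, RGS4, CCND1, MYC and SOX4, and also for POSTN, VIM and COL1A2. Those of SPP1, CYTL1, MFAP5 and TNMD lie on both sides.

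Most matrix genes were within 1.5-fold. Of 27 collagen and fibre genes 24 were within it, none was higher and 3 were lower. Their median log2 ratio was -0.24, which was -0.14 after weighting by cluster makeup and ran from -0.30 to -0.0045 within clusters. COL1A2, a chain of type I collagen, had 1114 against 1741 CPM, the matrix gene CCDC80 32.8 against 61.2 and COL24A1, a minor fibril collagen, 75 against 115 CPM. Periostin (POSTN) had 4950 against 7053 CPM, but 60.8 UMIs per member against 61.2 UMIs in a cell with none. Likewise VIM, the intermediate filament of mesenchymal cells, had 17643 against 27260 CPM and 217 against 237 UMIs per cell. POSTN and VIM differed in CPM and little in UMIs per cell. Both, like COL1A2, were lower in CPM in 8 of 8 clusters. Over all genes on no cycle list, 1428 had a lower CPM in members, and 1135 of those had more UMIs per cell in members. Members held 1.42 times the mean UMIs of the cells with none, so any gene past 1.5-fold lower in CPM must also have had fewer UMIs per cell. Of 13 proteoglycan and hyaluronan genes 3 were lower (OGN, ASPN and ECM2) and 1 higher, HAPLN3, a hyaluronan link protein, at 29.3 against 16.0 CPM. HAPLN3 reached 20 CPM in members alone, so its direction was fixed by the filter.

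Signal genes of skin patterning were mixed. Of 32 WNT, BMP, hedgehog, FGF and TGFB genes none was higher and 9 lower, with a median of -0.24, but the median within clusters ran from -0.19 to 0.05. TGFB2 had 18.1 against 37.5 CPM, the growth factor FGF18 16.8 against 30.0, and the WNT modulators DKK2 and SFRP1 15.3 against 26.3 and 25.8 against 43.0 CPM. Of these, TGFB2, FGF18 and DKK2 reached 20 CPM in the cells with none alone, so their direction was fixed by the filter. SFRP1 was higher in 6 of 8 clusters in spite of its pooled ratio. The targets and receptors LEF1, at 74.2 against 56.4 CPM, and PTCH1, at 31.1 against 26.0 CPM, were within 1.5-fold (picked after their values were seen). Of 18 growth and early mesenchyme genes 1 was higher and 6 lower, with a median of 0.0028. Among the lower ones was IGF1 at 36.8 against 81.8 CPM, which was lower in 6 of 8 clusters and higher in 2. Over all 3979 genes at this level, 19.1% were higher and 5.1% lower. Of 17 markers of E60 mesenchymal groups, a list chosen with earlier results of these data known, none was higher and 8 were lower. They include CYTL1, TNMD at 124 against 236 CPM, MFAP5 at 186 against 343 CPM and TMEM35A at 38.0 against 66.2 CPM. These 4 genes were higher in 5, 4, 3 and 2 of 8 clusters, in that order. The list median was -0.55, or -0.33 after weighting by cluster makeup, and ran from -0.49 to -0.058 within clusters.

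**Figure D3:**
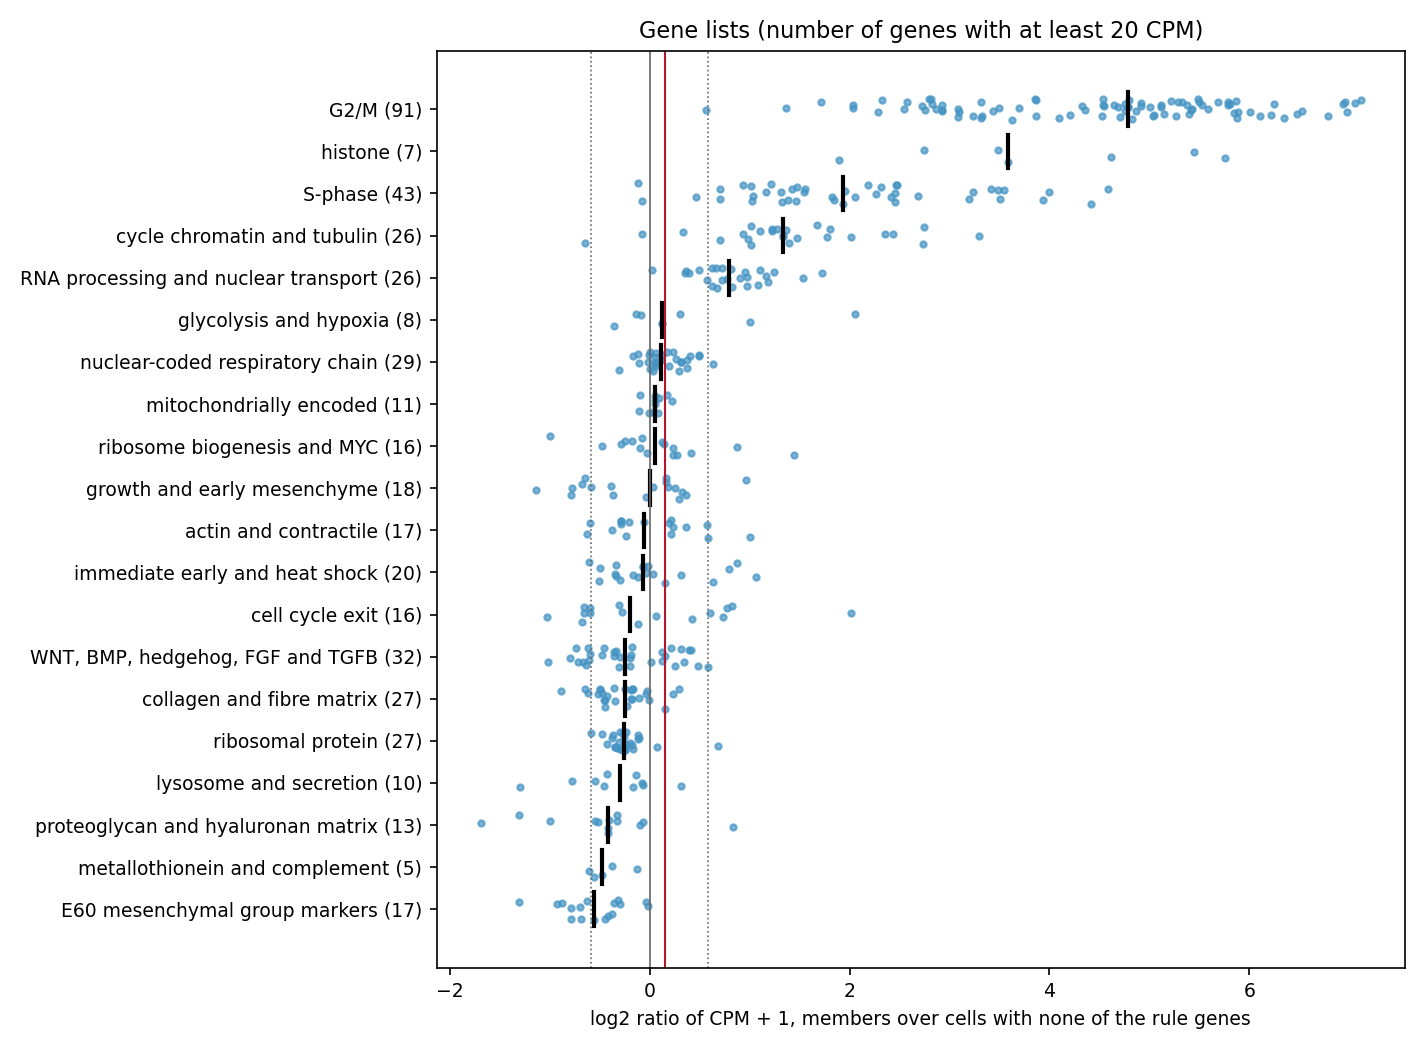
Log2 ratio of CPM + 1, members over cells with none of the rule genes, for each gene of each list with at least 20 CPM in either group (points, number of genes in brackets) and the list median (black bar). The red line is the median of all genes, 0.15, and dotted lines mark 1.5-fold. The cycle lists, many of whose genes reach 20 CPM in members alone, lie to the right, RNA processing and nuclear transport follows at 0.80, and the proteoglycan list at -0.41 and the mesenchymal group markers at -0.55 lie to the left.

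Members were found in every group of E60 mesenchyme. E60 cells were clustered without the cycle genes, and 12 of 23 clusters counted as mesenchymal from their markers. They held 6090 cells, 88.9% of E60, and 900 members, 86.5% of all members, so that 14.8% of mesenchymal cells were members. The share was 9.05 to 25.3% over the 12. The highest, 68 of 269 cells, was in a cluster led by the cholesterol synthesis gene HMGCS1 and by CDKN3 and CCNB2, in which 8 of the 10 leading genes were cycle genes although these had been withheld from clustering, so it was in part a cluster of cycling cells. A share in a cluster of that kind says nothing of a cell type. Among the others, the cluster with PTHLH, INHBB and DKK1 had 116 members of 530 cells, 21.9% (18.4 to 25.7%), with 2 cycle genes among its 10 leaders. Its found markers included TOP2A, CENPF, NEK2, HJURP and CENPE, as in the HMGCS1 cluster, so it too was in part a cluster of cycling cells. The cluster led by CHN1, HIST1H1A and CYP26B1, the last a retinoic acid hydroxylase, had 186 of 900, 20.7% (18.1 to 23.5%). HIST1H1A is itself on a cycle list. The cluster with ELAVL4, TNNI1 and ISM1, in which DKK1 also stood out, had 137 of 732, 18.7% (16.0 to 21.7%).

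Lower shares were seen in 5 other fibroblast clusters, among them the 2 largest. The cluster with ANGPT1, GDF10 and CBR3 had 130 members of 1152 cells, 11.3% (9.51 to 13.3%), and that with KIF5C, TMEM35A and CPXM2 had 111 of 1089, 10.2% (8.46 to 12.1%). The cluster with ALDH1A1, HTR2A and PCOLCE2 had 44 of 381, 11.5%, that with CCL11, MGP and ANGPTL6 29 of 302, 9.60%, and that with MAP1LC3C, SEMA3C and EFHD1, rich in collagen and decorin, 43 of 475, 9.05%. The counting intervals of the latter 5 clusters lay below those of the 3 clusters at 18.7 to 21.9%, which after thinning no longer held for the ELAVL4 cluster. The PTHLH and CHN1 clusters had cycle genes among their leaders, so a cell type and a phase of the cycle cannot be told apart in their shares. A tendon-like cluster with TAC1, COL2A1 and KERA had 21 of 152, 13.8%, and another with THBS4, CCK and CPA1 had 6 of 51, 11.8%. The cluster with SMOC1, BMP7 and BMP4, dermal condensate-like by SOX18, ALPL and PRDM1, had 9 members of 57 cells, 15.8%, with an interval of 7.48 to 27.9% that covers most of the range of the other clusters. The ELAVL4 cluster also had SOX18, ALPL and PRDM1 among its found markers, with RSPO3, so these markers do not single out the SMOC1 cluster. Whether cells of the SMOC1 cluster divided more or less than the dermis around them was not detectable with 57 cells.

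Depth and the way of grouping moved these shares. After thinning to 6000 UMIs the range was 6.43 to 24.2%, and the CHN1 cluster went to 16.3%, the ELAVL4 cluster to 13.9% and the TMEM35A cluster to 6.43%. At Leiden resolution 2 the range was 0.739 to 71.3% over 17 mesenchymal clusters, and with the cycle genes kept it was 0 to 100% over 14, with some clusters made of members alone. Cells were therefore also grouped by marker genes in place of clusters, an alternative chosen after seeing the data. Each cell of the 12 mesenchymal clusters was assigned to the highest of 5 marker sums, scaled over those cells. Which cells counted as mesenchymal thus still came from the clustering. The group with DKK1, CXCL14, IGFBP3 and ISM1 had 378 members of 1870 cells, 20.2% (18.4 to 22.1%), and 16.8% after thinning. The group with TMEM35A and RCAN2 had 256 of 1885, 13.6%, the tendon or cartilage group 65 of 459, 14.2%, and the group with GDF10, ANGPT1 and ACTA2 147 of 1280, 11.5%. The group with SMOC2, SEMA3C and MFAP5 had 54 of 596, 9.06% (6.88 to 11.7%), and 8.72% after thinning. The interval of the DKK1 and CXCL14 group did not overlap those of the other groups, while after thinning it overlapped that of the tendon or cartilage group alone, at 15.1 to 18.6% against 9.54 to 15.8%. Its median depth of 8164 UMIs lay between the 7913 and 7915.5 of the tendon or cartilage and SMOC2 groups and the 8610 and 8828 of the GDF10 and TMEM35A groups.

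**Figure D4:**
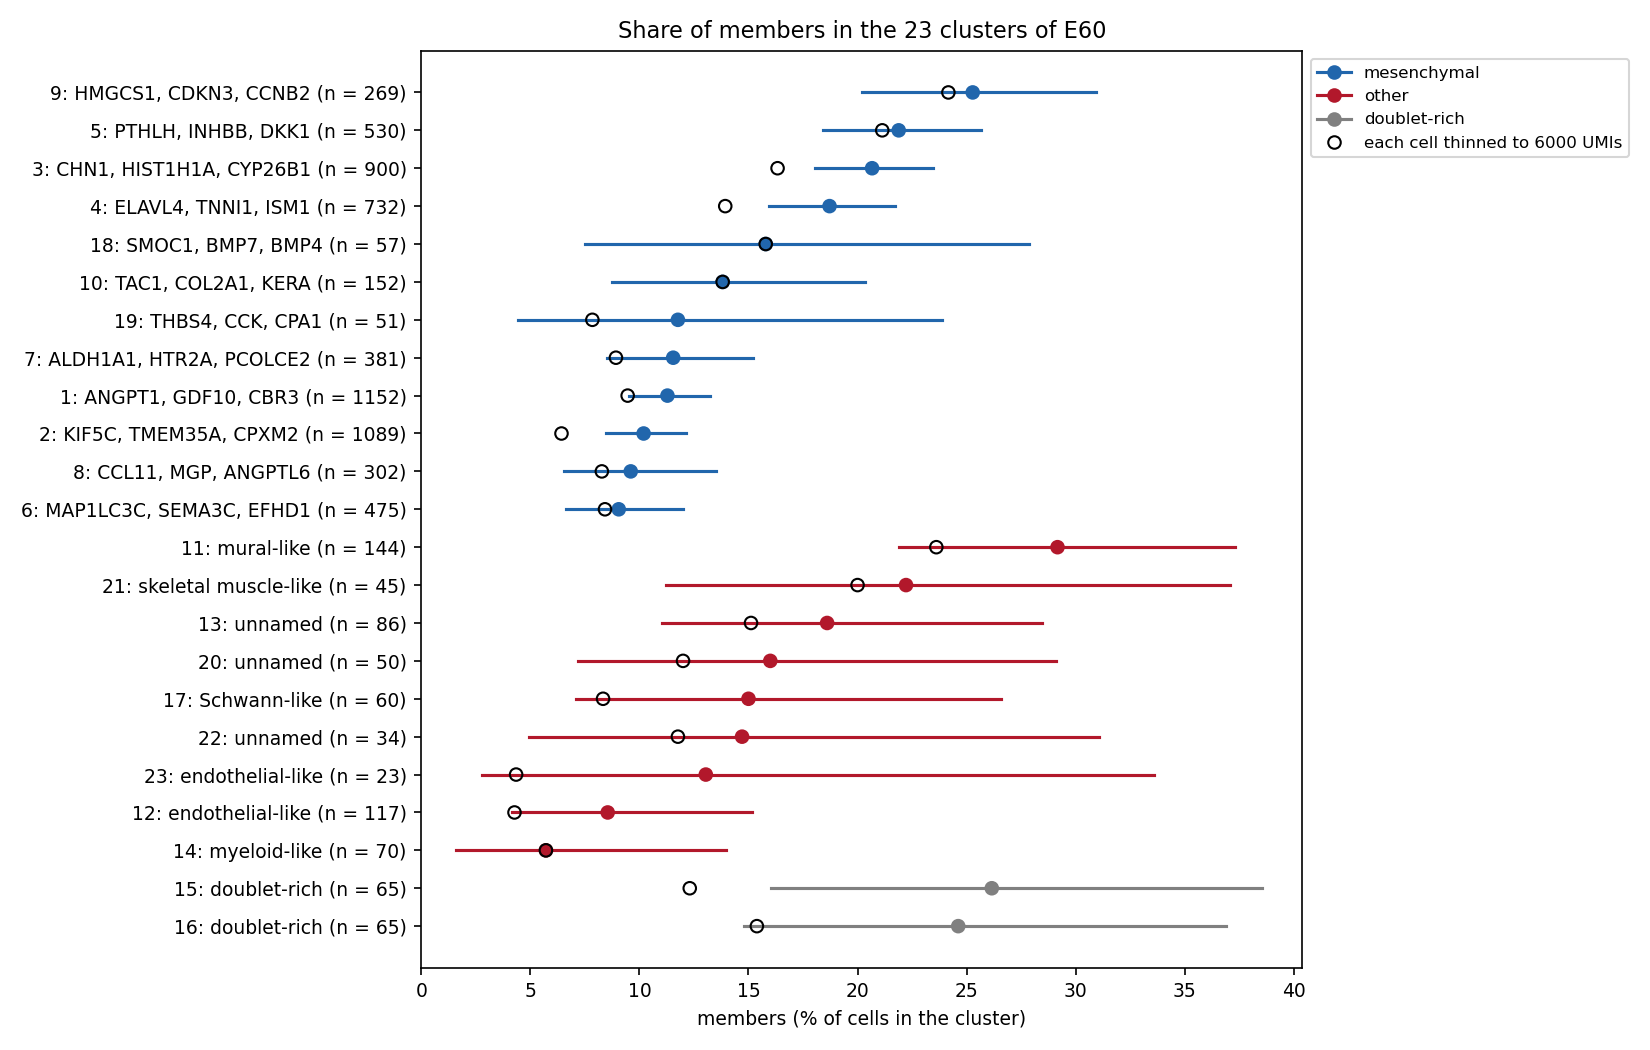
Share of members among the cells of each of the 23 E60 clusters (filled points, with 95% exact Clopper-Pearson intervals) and after each cell was thinned to 6000 UMIs (open circles), with the number of cells. Mesenchymal clusters are named by their 3 leading genes and the others by class where one was found. Mesenchymal clusters run from 9.05 to 25.3%, and the mural-like cluster reaches 29.2%. The 2 doublet-rich clusters drop from 26.2 and 24.6% to 12.3 and 15.4% after thinning.

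Members of separate mesenchymal clusters differed in the levels of the cycle lists. Over the 8 clusters with at least 30 members the G2 and mitosis list ran from 15255 to 28011 CPM in members. The S-phase list ran from 1512 to 7279 CPM and the share of members with all 7 rule genes from 14.4 to 49.1%. The lowest S-phase value was that of the HMGCS1 cluster, where 8 of the 10 leading genes were cycle genes, so it says nothing of a cell type. DKK1 stood out in a pair of these clusters whose members differed. Members of the PTHLH cluster had 28011 CPM of the G2 and mitosis list, 2103 CPM of the S-phase list and all 7 rule genes in 49.1%, whereas members of the ELAVL4 cluster had 17455 CPM, 7279 CPM and 15.3%. Because cycle genes were among the leading genes of the PTHLH cluster, a split of 1 kind of cell by its phase and a difference between kinds of cells cannot be told apart here. Median UMIs per member ran from 10523 to 12794 in these clusters, and from 7261 to 8658 in their cells with none.

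Outside the mesenchyme the shares rested on few cells. The mural-like cluster, led by GAL, MYH11 and RERGL with NOTCH3, KCNJ8 and ABCC9 among its found markers, had 42 members of 144 cells, 29.2% (21.9 to 37.3%), and 23.6% after thinning, the highest share of any named class, with called doublets at 11.8% of its cells. The skeletal muscle-like cluster with MYOG, MYH8 and MYH3 had 10 of 45, 22.2% (11.2 to 37.1%), and the Schwann-like cluster 9 of 60, 15.0%. The endothelial-like cluster with PLVAP, DEPP1 and VWF had 10 of 117, 8.55% (4.17 to 15.2%), and the myeloid-like cluster with SPP1, CD163 and TREM2 4 of 70, 5.71%. Markers of other classes moved with membership. Schwann markers summed to 9.86 against 30.1 CPM, with 0 of 6 higher in members and S100B at 0 in both groups. Red cell markers summed to 1046 against 771 CPM with 3 of 4 higher, skeletal muscle markers to 83.5 against 57.1 CPM with 5 of 7 higher, and mural markers to 285 against 317 CPM with 3 of 8 higher. Endothelial markers summed to 39.4 against 47.5 CPM with 2 of 8 higher, and epithelial ones to 0.47 against 0.80 CPM with KRT14 and TP63 at 0 in both. Dermal fibroblast markers summed to 13403 against 19256 CPM, with 2 of 8 higher. Their part in the pooled differences was not tested beyond the values within clusters given above.

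The same rule found 404 of 6931 cells at E90, 5.83%, and 1298 of 6896 cells at E120, 18.8%. The libraries differed in depth, with a median of 8579 UMIs per cell at E60, 3714 at E90 and 13064 at E120. Thinned to 2000 UMIs, the shares were 6.67% at E60 (6.09 to 7.29%), 1.72% at E90 and 4.18% at E120, so E120 was above E60 only before thinning. All 7 rule genes were found in 4.26% of E60, 0.144% of E90 and 3.73% of E120 cells. TOP2A was in 45.3% of E90 cells at 188 CPM and in 25.2% of E60 cells at 278 CPM, a share and a level in opposite order. Every class of skin cell can divide, so the share that free RNA alone would give was not measured. Cell barcodes were shared by 9 cells between E60 and E90 and 10 between E60 and E120. Stage, fetus, dissociation and library cannot be told apart in this comparison.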

How the data were processed

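Single-cell RNA-seq of fetal goat dorsal skin was read with Cell Ranger 3.0.2, per the submitters' processing notes. The genome build and annotation are not given in the sources used here. The deposited values were natural log values, ln(1 + count scaled to 10000 per cell), as the values themselves showed. UMI counts were recovered by inverting them, and 100% came out whole within 0.01. The design had assumed counts, and all sums are of recovered UMIs, scaled to CPM. The members and the gene lists were chosen with earlier results of these data known.

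E60 cells were clustered alone from 2000 variable genes, 30 principal components, 20 neighbours and Leiden resolution 1 (Python 3.11.15, scikit-learn 1.9.0, leidenalg 0.10.2). For this, 929 genes were left out: the rule genes, the cycle lists and genes whose log value correlated above 0.15 in size with the number of rule genes detected. A class marker was found when in at least 10% of a cluster's cells and at 2 times its median cluster level. A cluster was mesenchymal with at least as many mesenchymal markers as all others, DCN at 1000 CPM or more and under 50% of cells called doublets, a definition set after seeing the data. Doublets were called with a script of the Scrublet algorithm, which marked 3.78% of E60 cells and 47.8% of simulated doublets. None were removed in the reported values.

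With 1 library per stage no test, p-value or standard error was computed. A gene was counted as different when it reached 20 CPM in one group and differed by 1.5-fold or more on log2(CPM + 1). On counts simulated for the 2 pooled sums from 1 shared profile, 191 of 200 genes changed 2-fold were counted, and 0 of 3455 unchanged ones. With counting error alone and sums this large, unchanged genes could hardly pass 1.5-fold. The simulation held no single cells, clusters or doublets, so it checks the calculation and says nothing of false calls in these data. Named genes are up to 4 per list with the largest differences, the 12 highest and 12 lowest genes of at least 50 CPM on no cycle list, the rule genes and the 3 leading genes of each cluster, of which a few are not reported here. Genes outside this rule were chosen after their values were seen, and the text marks them.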

Additional observations from a re-analysis of the deposited data

How the results depend on the processing

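No paired analysis was possible because each stage is 1 library, and no replicate could be left out for the same reason. Promoter motifs were planned but not run, as no promoter sequences were used here. The share of E60 members was 18.0% with at least 3 rule genes, 12.2% with at least 5 and 12.2% at 6000 UMIs. Of genes on no cycle list, 253 were higher and 37 lower at 2-fold, 345 and 102 with a minimum of 50 CPM, and 1395 and 648 with no minimum but 3 counts; 388 were lower under scaling by the median of ratios and 117 with a pseudocount of 10 CPM. Over mesenchymal clusters the lowest share was 6.43% at 6000 UMIs, 0.739% at resolution 2 and 0 with cycle genes kept for clustering, and the highest 71.3% and 100% under the latter settings and 31.6% with at least 3 rule genes.

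The summed S-phase ratio (log2) was 1.58 under scaling by the median of ratios, 1.81 from mean CPM of single cells, 1.46 with the cells with none weighted to the UMI deciles of the members, 1.80 without called doublets and 1.55 with all cells thinned. The summed G2 and mitosis ratio was 3.63, 3.85, 3.67, 3.84 and 3.93 in the same order. List medians under scaling by the median of ratios were 1.78 for S-phase, 4.63 for G2 and mitosis, 1.18 for cycle chromatin and tubulin, 3.43 for histone, -0.40 for collagen, -0.57 for proteoglycan, -0.40 for WNT and the other signals, -0.22 for immediate early and heat shock, -0.10 for ribosome biogenesis, -0.21 for actin, -0.044 for respiratory chain, -0.45 for lysosome and secretion, -0.41 for ribosomal protein and -0.10 for mitochondrially encoded genes. Weighting by cluster makeup gave 1.80 for S-phase, 4.67 for G2 and mitosis, 1.26 for chromatin and tubulin, 3.55 for histone, -0.14 for collagen, -0.26 for proteoglycan, -0.33 for the mesenchymal group markers, -0.14 for immediate early, -0.20 for actin and -0.28 for ribosomal protein. Weighting by UMI deciles gave 1.55 for S-phase, 4.57 for G2 and mitosis, 1.26 for chromatin and tubulin, 3.49 for histone, -0.29 for proteoglycan, -0.16 for the signals, -0.10 for immediate early, -0.23 for ribosomal protein and -0.0041 for mitochondrially encoded genes. Without called doublets the medians were 4.87 for G2 and mitosis and -0.27 for ribosomal protein. SPP1 reversed to 0.26 in mesenchymal clusters alone, an alternative added after seeing the data. Shares at 2000 UMIs were 6.67% at E60, 1.72% at E90 and 4.18% at E120, and with at least 3 rule genes 14.5% at E90 and 24.8% at E120. Where no value above shows the cause of a move, the cause was not tested.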
